A study of Mus musculus with 12 samples.

Results

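The 35 genes described here are antiviral interferon-stimulated genes of the mouse, a list given by gene symbol, with no measured value in its rule. The list was chosen with earlier results of these data known. All 35 had 1 Ensembl gene ID each in every table, among 49585 gene IDs in the liver tables and 55401 in the macrophage tables. By role they were 4 IFIT genes, 6 genes of the oligoadenylate synthetase family, 4 RNA sensors and kinases, 5 genes of the ISG15 and ubiquitin system, Parp9, Dtx3l and Parp14, 10 restriction factors and related genes, 2 PYHIN genes and Stat2.

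Poly(A) RNA of C57BL/6 mice was sequenced in 12 libraries, 3 for each of 4 groups. Liver was taken without treatment or 2 h after lipopolysaccharide (LPS), the cell wall component of Gram-negative bacteria. The sample titles label the untreated livers WT. The other libraries came from peritoneal macrophages, the macrophages of the abdominal cavity, that had carried a lentivirus encoding a short hairpin RNA for 72 h before 2 h of LPS. The hairpin was a negative control (shNC) or was directed against Gm26917, a long non-coding RNA (shGm26917). All macrophages of the study therefore received both lentivirus and LPS, and the macrophage comparison measures the hairpin and not the response to LPS. The sources used here do not give age, sex, the number of animals, any pooling, the LPS dose or whether the libraries of a group came from separate animals or cultures, so p-values measure the spread between these libraries.

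LPS is sensed by toll-like receptor 4, which through the adaptor TRIF activates the transcription factor IRF3 and the interferon-beta gene. Secreted type I interferon binds the receptor IFNAR1/IFNAR2, whose kinases activate a complex with STAT2 and IRF9 that binds the interferon-stimulated response element (ISRE) of target genes. The products of those genes sense viral RNA, block its translation, degrade it, hinder virus entry or release, or set the strength of the interferon signal itself.

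Several of the genes lie side by side in the genome (GENCODE M21, GRCm38). Ifit2, Ifit3, Ifit3b and Ifit1 stood in this order at chr19:34550694-34650009. Oas2, Oas3, Oas1g and Oas1a lay at chr5:120730333-120907521, and Oasl2 and Oasl1 at chr5:114896936-114937915. Parp14, Dtx3l and Parp9 lay at chr16:35832874-35972605, Mx1 and Mx2 at chr16:97447035-97560900, Rsad2 and Cmpk2 at chr12:26442746-26479837, and Ifi204 and Ifi205 at chr1:173747293-174031810. Of the 35 genes, 34 are annotated as protein-coding and Mx2 as a polymorphic pseudogene, that is, a gene intact in some mouse strains.

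Promoter sequence was in the RefSeq table (GRCm38.p6) for 26 of the 35 genes. The ISRE core, here GAAA and again GAAA after a spacer of 2 bases, was searched on both strands in the 250 bases before the transcription start. It was present in 12 of those 26 (46.15%), against 3.46% of the 27025 genes of that table. A longer form, the core followed by CT, was present in 7 of the 26 (26.9%) and in 0.255% of all genes. The gamma-activated site TTCNNNGAA was found in 5 of the 26 (19.2%, against 8.13%). These are matches of letters in a window and were not tested as binding sites.

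The windows below show matches of genes that recur in the results, read 5′ to 3′ on the strand of the gene, with the ISRE core in capitals. Isg15, Ifit1, Rsad2 and the Ifit3 and Ifit3b pair were among the genes with the largest differences in both comparisons, and Bst2 was among those with the smallest. The Ifit3 and Ifit3b windows are identical in sequence, as the 2 promoters share a run of 169 bases, and those of Oas1a and Oas1g differ only in where they end at the start site. In Ifit1, Ifit3, Ifit3b and Rsad2 the core lies on the other strand and appears as its reverse complement.
Isg15, chr4:156200860-156200911, minus strand: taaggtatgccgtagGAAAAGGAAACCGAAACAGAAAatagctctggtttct
Ifit1, chr19:34640770-34640828, plus strand: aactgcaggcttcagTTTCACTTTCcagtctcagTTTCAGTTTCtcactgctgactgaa
Ifit3, chr19:34583358-34583397, plus strand: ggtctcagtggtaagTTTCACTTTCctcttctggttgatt
Ifit3b, chr19:34607754-34607793, plus strand: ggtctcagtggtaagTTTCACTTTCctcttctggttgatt
Oas1a, chr5:120907526-120907560, minus strand: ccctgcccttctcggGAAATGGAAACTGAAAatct
Oas1g, chr5:120887614-120887646, minus strand: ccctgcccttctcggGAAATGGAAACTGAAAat
Rsad2, chr12:26456548-26456587, minus strand: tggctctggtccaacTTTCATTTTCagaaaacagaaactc
Bst2, chr8:71537572-71537617, minus strand: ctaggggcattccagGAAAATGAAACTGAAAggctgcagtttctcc
The first match began 78 bases before the start site in Isg15, 104 in Ifit1, 156 in Ifit3, 188 in Ifit3b, 20 in Oas1a, 18 in Oas1g, 120 in Rsad2 and 130 in Bst2. Ifit3 and Ifit3b each held a further match, not printed here, that began 122 and 154 bases before the start site. Genes with and without the core overlapped in their differences: the liver log2 fold changes ran from 1.68 to 8.26 in the 12 genes with it and from 1.84 to 7.75 in the 14 without.

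Total counts per library ran from 17322770 to 20913964 in liver and from 15605311 to 18062853 in macrophages. Levels below are CPM, read counts relative to the library size scaled by TMM, in the order of replicates 1, 2 and 3. A log2 fold change is LPS minus untreated in liver and shGm26917 minus shNC in macrophages, with its standard error (SE). Adjusted p-values are those of edgeR's quasi-likelihood F test, corrected after Benjamini and Hochberg over every gene tested in the tissue, and a gene is called changed when this value is under 0.05. In macrophages, Gm26917 itself was not analysed here, so the knockdown was not checked; its counts in the liver libraries ran from 1863 to 7652. In macrophages, shNC replicate 2 stood apart from the other control libraries, and values without it follow most macrophage results. It was the highest control in all 35 genes, so leaving it out narrows the spread among controls by construction. Smaller adjusted p-values without it are therefore no firmer support for a difference.

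In liver, all 35 genes rose with LPS. Across all 13869 genes tested, 23.3% were called higher and 22.1% lower. The median log2 fold change of the 35 was 4.50, against -0.06 for all genes tested. The smallest rise was that of Bst2, 3.20-fold, and the largest that of Mx1, 852-fold. Of the 35, 33 rose at least 4-fold, 22 at least 16-fold and 10 at least 64-fold. Adjusted p-values ran from 1.42e-06 to 0.00110, and in all 35 every LPS library was above every untreated library, which held for 29.4% of all genes tested (28.4% had the reverse order). The summed level of the 35 genes was 732, 639 and 648 CPM in untreated liver and 25917, 25538 and 21916 CPM after LPS. In whole liver, more cells that express a gene and more RNA per cell cannot be told apart.

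**Figure D1:**
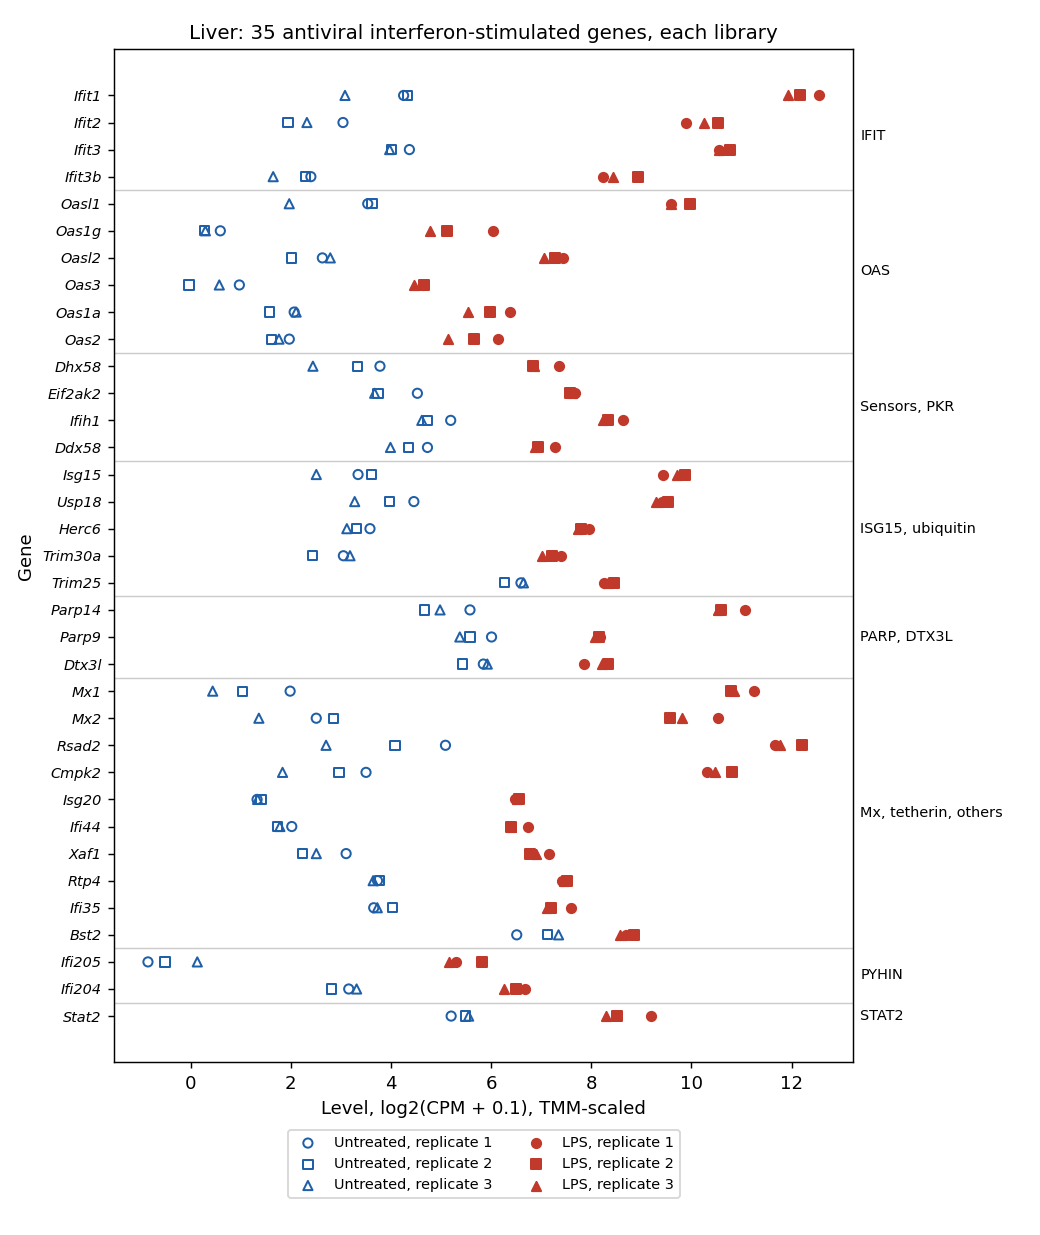
Level of each of the 35 genes in each liver library, as log2(CPM + 0.1) on TMM-scaled library sizes, with open symbols for the 3 untreated libraries and filled symbols for the 3 LPS libraries. Genes are grouped by role, and in every gene the 3 filled symbols lie to the right of the 3 open ones.

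The IFIT proteins, which bind viral RNA and hinder its translation, rose most as a group, with log2 fold changes of 6.44 to 8.26. Ifit1 was at 19.0, 20.1 and 8.38 CPM in untreated liver and at 5998, 4593 and 3919 CPM after LPS. This was a log2 fold change of 8.26 ± 0.50 (SE; adjusted p = 8.69e-06). Ifit3b, the smallest change of this group, went from 5.19, 4.82 and 3.04 CPM to 303, 485 and 348 CPM, a log2 fold change of 6.44 ± 0.34 (SE; adjusted p = 5.40e-06). The groups were far apart in both genes, while the untreated libraries spanned 2.40-fold and 1.71-fold. Ifit3 and Ifit3b share 51.2% and 45.0% of their distinct 50-base sequences with other genes, mainly with each other, so their counts can have been split or lost, depending on how reads with several matches were counted.

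The oligoadenylate synthetases make the messenger that activates the nuclease RNase L, and OASL1, a relative without that activity, restrains the translation of IRF7. All 6 genes of the family rose. Oasl1 went from 11.5, 12.2 and 3.82 CPM to 769, 997 and 770 CPM, with a log2 fold change of 6.52 ± 0.50 (SE; adjusted p = 2.41e-05). Oas2 changed least in this family, from 3.82, 2.97 and 3.30 CPM to 70.3, 50.3 and 34.9 CPM, a log2 fold change of 3.94 ± 0.29 (SE; adjusted p = 1.99e-05). In Oas2 the LPS libraries themselves spanned 2.01-fold, and in Oas1g 2.38-fold, the widest spread among the 35 genes after LPS. Oas1a and Oas1g share 57.6% and 45.7% of their 50-base sequences with other genes, mostly with each other, and the split of reads between them is uncertain.

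The sensors RIG-I (Ddx58) and MDA5 (Ifih1) detect viral RNA, LGP2 (Dhx58) modulates them, and the kinase PKR (Eif2ak2) stops translation when it binds double-stranded RNA. These genes rose less than the IFIT genes, with log2 fold changes of 2.66 to 3.77. Dhx58 went from 13.7, 10.01 and 5.34 CPM to 165, 115 and 116 CPM, a log2 fold change of 3.77 ± 0.36 (SE; adjusted p = 8.05e-05). Ddx58 went from 26.4, 20.3 and 15.8 CPM to 155, 123 and 117 CPM, a log2 fold change of 2.66 ± 0.24 (SE; adjusted p = 6.54e-05). Every LPS library was above every untreated one in both.

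ISG15 is a ubiquitin-like protein that is attached to other proteins, HERC6 is the mouse ligase for it, and USP18 removes it and also damps the interferon receptor. Isg15 rose from 10.1, 12.1 and 5.60 CPM to 687, 931 and 839 CPM, with a log2 fold change of 6.47 ± 0.38 (SE; adjusted p = 7.46e-06). Trim25, a ubiquitin ligase that acts on RIG-I signalling, started high and rose least of these 5 genes, from 96.7, 76.7 and 100 CPM to 307, 353 and 320 CPM. The log2 fold change was 1.84 ± 0.20 (SE; adjusted p = 0.000195). Usp18 and Herc6 lay between them, with rises of 43.5-fold and 22.6-fold. Herc6 shares 12.5% of its distinct 50-base sequences with other genes, mainly Gm45193, whose exons overlap it on the same strand.

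PARP9 and the ubiquitin ligase DTX3L form a complex, and PARP14 is a related ADP-ribosyltransferase. Parp14 rose from 47.7, 25.4 and 31.5 CPM to 2157, 1545 and 1469 CPM, a log2 fold change of 5.63 ± 0.37 (SE; adjusted p = 1.11e-05). Dtx3l rose from 57.4, 42.9 and 60.6 CPM to 232, 321 and 295 CPM, a log2 fold change of 2.40 ± 0.23 (SE; adjusted p = 9.16e-05). The Dtx3l and Parp9 genes overlap on opposite strands over 458 exonic bases, and no source used here says whether strand was used in counting.

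Among the restriction factors, the Mx GTPases, where intact, block incoming viral ribonucleoproteins. Viperin (Rsad2) makes a chain-terminating nucleotide, and tetherin (Bst2) holds budding virus at the cell surface. Read counts do not show whether the Mx genes of these mice encode intact proteins. Mx1 rose from 3.87, 1.95 and 1.26 CPM to 2439, 1768 and 1834 CPM, a log2 fold change of 9.74 ± 0.55 (SE; adjusted p = 6.52e-06). Rsad2 and its neighbour Cmpk2, which encodes a mitochondrial nucleotide kinase, rose 200-fold and 199-fold. Bst2 was already at 91.2, 139 and 163 CPM in untreated liver and reached 413, 462 and 383 CPM, a log2 fold change of 1.68 ± 0.26 (SE; adjusted p = 0.00110). The Bst2 groups did not overlap, and its untreated libraries spanned 1.78-fold. Without untreated replicate 1 the log2 fold change of Rsad2 was 8.35 in place of 7.64.

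The PYHIN proteins IFI204 and IFI205 are linked to the sensing of DNA. Ifi205 rose from 0.455, 0.603 and 0.999 CPM to 39.4, 56.3 and 35.5 CPM, and Ifi204 from 8.83, 6.91 and 9.86 CPM to 102, 90.3 and 76.0 CPM. Their log2 fold changes were 5.98 ± 0.34 (SE; adjusted p = 6.81e-06) and 3.39 ± 0.21 (SE; adjusted p = 1.04e-05). Both belong to a gene family with similar sequences: 18.6% and 20.0% of their 50-base sequences occur in other genes. Stat2, the transducer of the interferon signal, rose from 36.7, 44.8 and 46.8 CPM to 589, 364 and 314 CPM, a log2 fold change of 3.30 ± 0.29 (SE; adjusted p = 5.73e-05).

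Per kilobase of exon, the level of the 35 genes in untreated liver ran from 0.164 CPM per kb (Ifi205) to 145 CPM per kb (Bst2), with a median of 2.95. After LPS it ran from 3.40 (Oas3) to 1821 (Ifit1), with a median of 56.8 CPM per kb. Among untreated libraries the ratio of the highest to the lowest value had a median of 1.71 over the 35 genes, against 1.51 for all genes tested, and reached 5.28 in Rsad2 (34.0, 16.8 and 6.43 CPM). After LPS the median ratio was 1.34, against 1.40 for all genes. None of the 35 was highest in LPS replicate 3, while 20 were highest in replicate 1 and 15 in replicate 2.

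In macrophages, 34 of the 35 genes fell with the Gm26917 hairpin, and Bst2 did not pass the test. Of all 12876 genes tested, 11.1% were called lower and 12.6% higher. The median log2 fold change of the 35 was -3.59, against a median near 0 for all genes tested (-0.00073). Of the 35 differences, 33 were at least 4-fold, 14 at least 16-fold and 11 at least 64-fold, and the fold ran from 3.56 lower in Trim25 to 577 lower in Ifit3. In all 35 every shGm26917 library was below every shNC library, which held for 21.7% of all genes tested (24.2% had the reverse order).

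The number of calls and the size of the differences depended on single libraries. With shNC replicate 2 left out, all 35 genes were called lower, the median log2 fold change was -2.67, and the range ran from -0.93 in Bst2 to -6.84 in Rsad2. In that fit 19.1% of the 13221 genes tested were called lower and 20.5% higher. All 35 were also called without shNC replicate 1, and 31 without shNC replicate 3. Of all genes tested, 1084 of 13299 and 801 of 13289 were called lower there. Without shGm26917 replicate 1, 2 or 3 the count was 19, 13 or 14, with all 35 lower in every fit. Lower calls over all genes then were 611 of 13268, 360 of 13218 and 406 of 13244. The median log2 fold change of the 35 was -3.73, -3.51 and -3.49 in these fits. The 13 genes called in each of the 6 fits that left out 1 library were Cmpk2, Ifih1, Ifit1, Isg15, Oas1g, Oas2, Oasl1, Oasl2, Parp14, Parp9, Rsad2, Rtp4 and Xaf1. The summed level of the 35 genes was 3786, 21752 and 8422 CPM in the shNC libraries and 1157, 1021 and 959 CPM in the shGm26917 libraries. All 35 genes passed the filter on low counts, 4 of them (Ifit2, Ifit3b, Mx2 and Ifi44) only through their shNC libraries, so that a difference in these 4 was a condition of being tested.

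**Figure D2:**
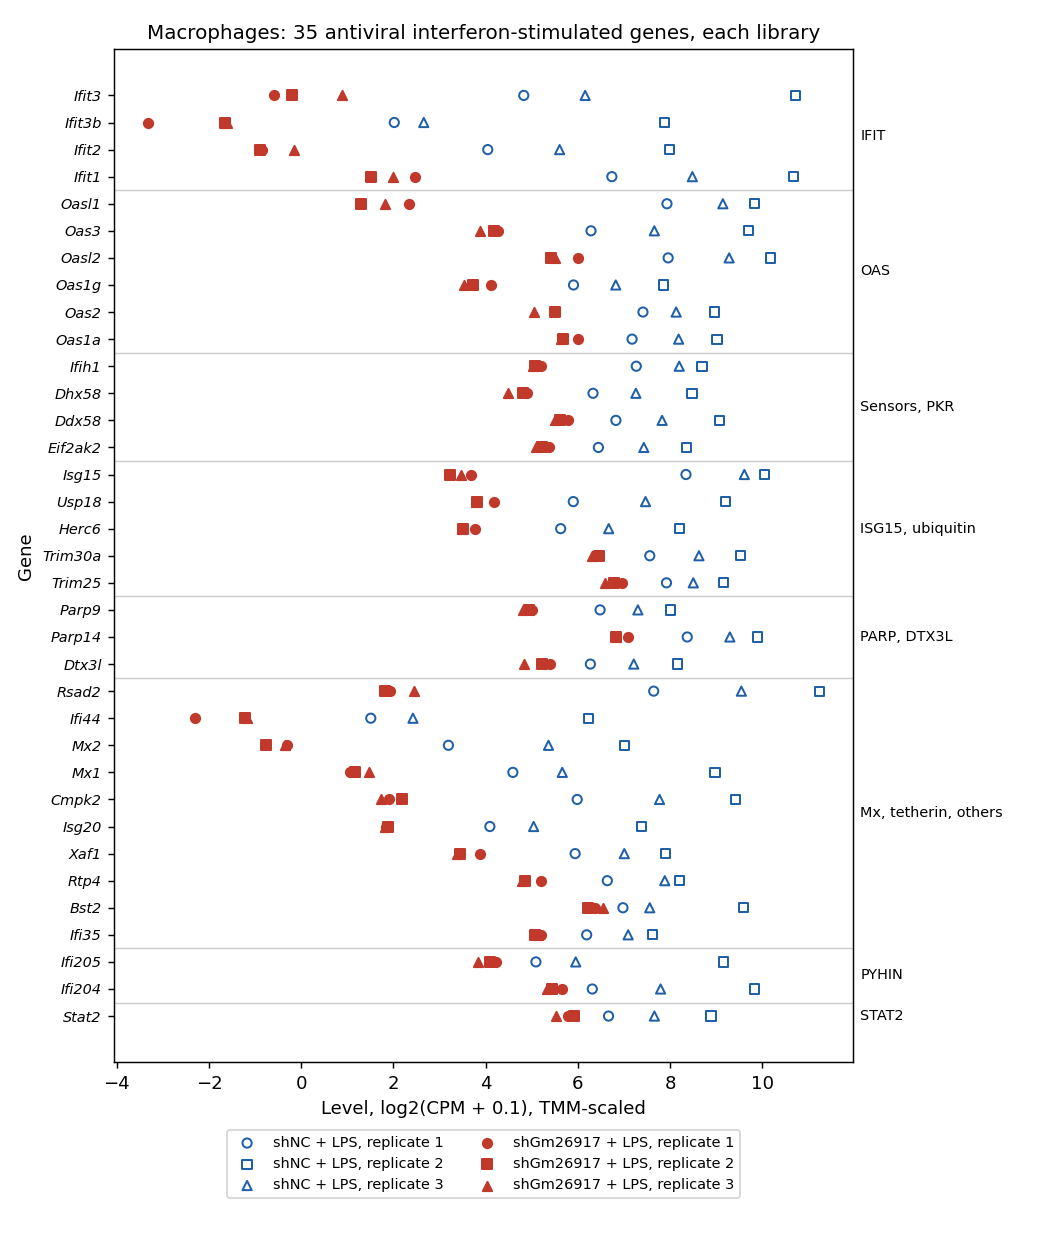
Level of each of the 35 genes in each macrophage library, as log2(CPM + 0.1) on TMM-scaled library sizes, with open symbols for shNC and filled symbols for shGm26917. In every gene the open square of shNC replicate 2 lies farthest to the right, then the triangle of replicate 3 and the circle of replicate 1, and the filled symbols lie to the left of all 3.

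With all libraries, Ifit3 and Ifit3b showed the largest differences of the 35 genes and the widest spread among controls. Ifit3 was at 28.3, 1678 and 71.3 CPM with shNC and at 0.560, 0.767 and 1.76 CPM with shGm26917. Its log2 fold change was -9.17 ± 1.96 (SE; adjusted p = 0.0198), and without shNC replicate 2 it was -5.62 ± 0.50 (SE; adjusted p = 0.000234). It was -9.79 without shGm26917 replicate 3. Ifit1 was at 107, 1636 and 358 CPM with shNC and at 5.45, 2.74 and 3.86 CPM with shGm26917, a log2 fold change of -7.44 ± 1.16 (SE; adjusted p = 0.00834) and of -5.86 ± 0.53 without shNC replicate 2 (SE; adjusted p = 0.000234). The lowest shNC library was still 16.1-fold above the highest shGm26917 library in Ifit3, and 19.6-fold in Ifit1. Without single shGm26917 libraries, Ifit3 and Ifit3b lost their calls in all 3 fits (adjusted p from 0.0788 to 0.114), and Ifit2 lost its call without shGm26917 replicate 2 (adjusted p = 0.0541).

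In the OAS family all 6 genes fell, and Oasl1 fell most. Oasl1 was at 244, 906 and 566 CPM with shNC and at 4.94, 2.35 and 3.40 CPM with shGm26917. Its log2 fold change was -7.32 ± 0.63 (SE; adjusted p = 0.00235), and its lowest control was 49.4-fold above its highest shGm26917 library, the widest gap among the 35 genes. The log2 fold change of Oasl1 was -6.84 without shNC replicate 2. Oas3 fell 21.5-fold, or 8.18-fold without shNC replicate 2. The other genes of the family changed less. Oasl2 was at 248, 1159 and 621 CPM against 63.9, 42.9 and 45.1 CPM (log2 fold change -3.74 ± 0.56, SE; adjusted p = 0.00761). Oas1g was at 59.8, 231 and 113 CPM against 17.4, 13.2 and 11.4 CPM (-3.26 ± 0.50, SE; adjusted p = 0.00799). Oas2 was at 170, 500 and 280 CPM against 45.4, 45.2 and 33.0 CPM (-2.94 ± 0.40, SE; adjusted p = 0.00603). Among these 3, the shGm26917 libraries lay close together and the shNC libraries spread over 2.94-fold to 4.66-fold. Oas1a, the smallest change of the family, was at 144, 518 and 291 CPM against 64.05, 51.2 and 49.4 CPM, a log2 fold change of -2.53 ± 0.45 (SE; adjusted p = 0.0113). Without shNC replicate 2 the log2 fold changes were -3.12 in Oasl2, -2.64 in Oas1g, -2.47 in Oas2 and -2.004 in Oas1a.

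All 4 genes for RNA sensors and PKR fell, within a narrow range of -2.37 to -3.07. Ifih1 was at 154, 413 and 293 CPM with shNC and at 36.7, 33.5 and 32.3 CPM with shGm26917, a log2 fold change of -3.07 ± 0.36 (SE; adjusted p = 0.00421). Eif2ak2 was at 87.0, 327 and 172 CPM against 41.5, 37.3 and 34.2 CPM, a log2 fold change of -2.37 ± 0.45 (SE; adjusted p = 0.0142). The gap between the groups was wider in Ifih1 than in Eif2ak2: the lowest shNC library was 4.19-fold above the highest shGm26917 library in the former and 2.09-fold in the latter. The log2 fold changes of Ifih1 and Eif2ak2 were -2.73 and -1.80 without shNC replicate 2.

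In the ISG15 and ubiquitin group all 5 genes fell. Isg15 was at 325, 1060 and 781 CPM with shNC and at 12.8, 9.25 and 10.9 CPM with shGm26917, a log2 fold change of -6.04 ± 0.50 (SE; adjusted p = 0.00233). The spread of its controls, 3.26-fold, was small beside the gap of 25.3-fold between the groups. Trim25 was at 242, 571 and 363 CPM against 123, 111 and 95.8 CPM, a log2 fold change of -1.83 ± 0.31 (SE; adjusted p = 0.0106). Usp18 fell 18.0-fold, and 7.85-fold without shNC replicate 2. Parp9 was at 89.2, 257 and 158 CPM against 31.9, 30.6 and 27.8 CPM, a log2 fold change of -2.48 ± 0.37 (SE; adjusted p = 0.00726). Its complex partner Dtx3l was at 77.1, 287 and 148 CPM against 42.3, 37.1 and 28.6 CPM, a log2 fold change of -2.25 ± 0.46 (SE; adjusted p = 0.0180). Parp14 fell by a similar amount, 5.27-fold. Leaving out shNC replicate 2 gave log2 fold changes of -5.67 in Isg15, -1.48 in Trim25, -2.05 in Parp9, -1.66 in Dtx3l and -2.003 in Parp14, and all 5 were called.

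Of the 10 restriction factors and related genes, 9 fell. Rsad2 was at 200, 2407 and 747 CPM with shNC and at 3.72, 3.45 and 5.39 CPM with shGm26917. Its log2 fold change was -8.06 ± 1.06 (SE; adjusted p = 0.00526), and -6.84 ± 0.56 without shNC replicate 2 (SE; adjusted p = 0.000174). Its genomic neighbour Cmpk2 was at 63.2, 680 and 218 CPM against 3.67, 4.43 and 3.23 CPM, a log2 fold change of -6.40 ± 0.94 (SE; adjusted p = 0.00703), and fell 37.7-fold without that library. The lowest control lay 37.1-fold above the highest shGm26917 library in Rsad2 and 14.3-fold in Cmpk2. Mx1 fell 84.8-fold and Mx2 93.7-fold, or 16.7-fold and 39.9-fold without shNC replicate 2.

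Others of this group changed less. Xaf1, a pro-apoptotic protein, was at 61.3, 239 and 128 CPM with shNC and at 14.7, 10.7 and 10.3 CPM with shGm26917 (log2 fold change -3.59 ± 0.50, SE; adjusted p = 0.00628). Rtp4, a Golgi chaperone, was at 99.5, 293 and 236 CPM against 36.8, 28.8 and 27.3 CPM (-2.76 ± 0.40, SE; adjusted p = 0.00671). Ifi35 was at 73.0, 196 and 136 CPM against 36.6, 33.5 and 34.98 CPM (-1.95 ± 0.34, SE; adjusted p = 0.0108). All 3 had higher values in each control than in any shGm26917 library. With shNC replicate 2 left out they were called at log2 fold changes of -3.01, -2.46 and -1.60. Rtp4 shares 11.6% of its distinct 50-base sequences with Gm45338, whose exons overlap it on the same strand. Bst2 was at 126, 769 and 188 CPM with shNC and at 82.4, 74.8 and 92.9 CPM with shGm26917. Its log2 fold change of -2.11 ± 0.66 (SE; adjusted p = 0.0601) did not pass the test, and without shNC replicate 2 it was -0.93 ± 0.18 (SE; adjusted p = 0.00581). Without that library the difference was smaller, and so was its SE.

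The PYHIN genes and Stat2 were those whose calls rested most on single libraries. Ifi204 was at 79.4, 912 and 222 CPM with shNC and at 50.5, 43.3 and 40.4 CPM with shGm26917, a log2 fold change of -3.18 ± 0.84 (SE; adjusted p = 0.0370). Ifi205 was at 34.0, 572 and 61.8 CPM against 18.6, 16.9 and 14.1 CPM, a log2 fold change of -3.75 ± 1.08 (SE; adjusted p = 0.0471). Stat2 was at 101, 474 and 202 CPM against 55.3, 60.0 and 45.7 CPM, a log2 fold change of -2.27 ± 0.53 (SE; adjusted p = 0.0262). In each of the 3 the lowest control was less than 2-fold above the highest shGm26917 library. Leaving out shNC replicate 2 gave log2 fold changes of -1.77, -1.55 and -1.52, and all 3 remained called. Without shNC replicate 3, or without any 1 shGm26917 library, none of them was called (adjusted p from 0.0530 to 0.150).

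The spread among the 3 control libraries followed 1 order in every gene. In all 35 the level was highest in shNC replicate 2, next in replicate 3 and lowest in replicate 1, an order that 17.7% of all genes tested showed. The ratio of the highest to the lowest control had a median of 4.67, from 2.36 in Trim25 to 59.6 in Ifit3b, against a median of 1.47 over all genes, and it passed 2 in 35 of 35 genes against 26.1% of all genes. The shNC 3 to shNC 1 ratio, which leaves out replicate 2, still ran from 1.496 in Bst2 to 4.54 in Mx2 with a median of 2.01. With shGm26917 the median ratio of highest to lowest was 1.32, against 1.24 over all genes, so the 3 shGm26917 libraries resembled each other more than the controls did.

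**Figure D3:**
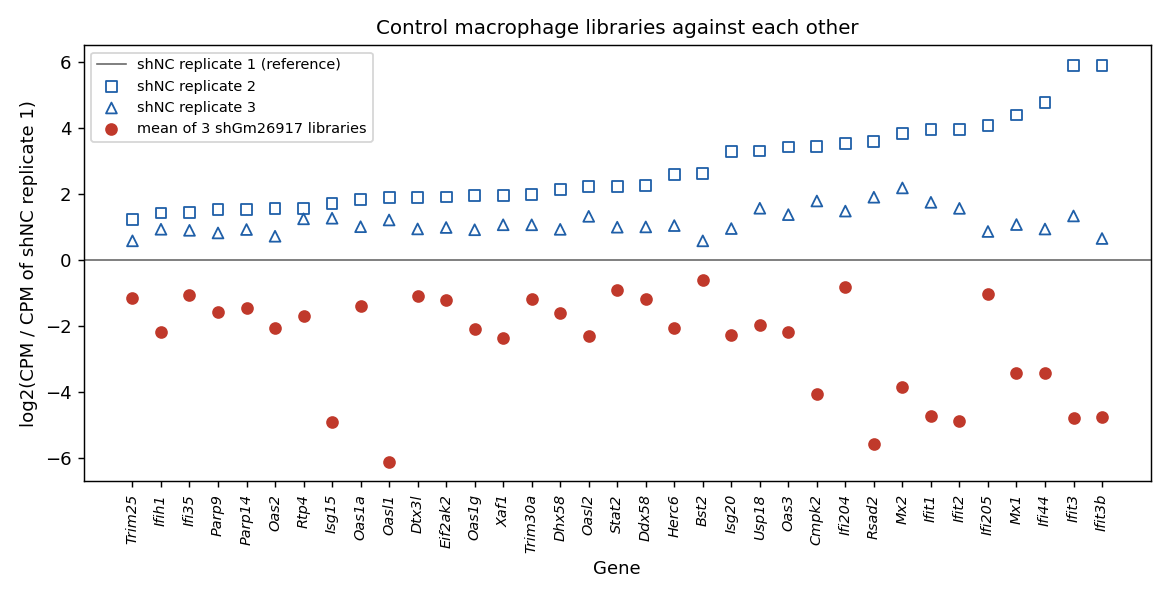
Level of each gene in shNC replicates 2 and 3 and mean level of the 3 shGm26917 libraries, each as log2 of the ratio to shNC replicate 1 (horizontal line). Genes are sorted by the shNC 2 to shNC 1 ratio, and in all 35 genes replicate 3 lies above the line, replicate 2 above replicate 3, and the shGm26917 mean below the line.

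In 26 of the 35 genes the ratio of shNC replicate 2 to replicate 1 was larger than the gap between the groups, that is the ratio of the lowest shNC to the highest shGm26917 library. In the other 9 (Ifit1, Ifit2, Isg15, Oas2, Oasl1, Rsad2, Cmpk2, Ifih1 and Xaf1) the gap was larger. The gap ran from 1.35-fold in Bst2 to 49.4-fold in Oasl1 with a median of 3.64, and it was under 2-fold in Stat2, Ifi204, Ifi205, Ifi35, Dtx3l, Trim25 and Bst2.

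Over all genes, the chi-square difference per gene between shNC replicates was 217 and 258 for the 2 pairs with replicate 2 and 31.2 for replicates 1 and 3. Values of this size were not particular to shNC replicate 2. In untreated liver they were 217 and 190 for the pairs with replicate 3 and 93.9 for replicates 1 and 2. Marker sums of several other cell types also differed in shNC replicate 2. The summed neutrophil markers were 604 CPM in it against 219 to 235 CPM in the other 2 controls. Ly6g, Retnlg and Cxcr2 were at 0 in it, so that sum rests on the other neutrophil markers. B cell markers summed to 191 CPM against 74.3 to 127 CPM, and stellate cell, fibroblast and mesothelium markers to 25.1 CPM against 1.76 to 2.08 CPM. Plasmacytoid dendritic cell markers summed to 43.2 CPM against 18.7 to 24.2 CPM, with Klk1 at 0 and Siglech, a defining marker, at 0.338 CPM. Sinusoidal endothelial cell markers summed to 21.3 CPM against 5.33 to 8.24 CPM, with Clec4g at 0. The 6 macrophage markers summed to 7924 CPM against 9394 to 11367 CPM, and those of large peritoneal macrophages to 835 CPM against 919 to 999.5 CPM. The Kupffer cell markers summed to 446 CPM against 1306 to 1649 CPM. Conventional dendritic cell markers summed to 6.96 CPM against 7.70 to 7.76 CPM, with Clec9a at 0. The part of other cells in the spread of the 35 genes was not tested.

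Between the macrophage groups, the macrophage markers summed to 7924 to 11367 CPM with shNC and 16515 to 25840 CPM with shGm26917, and 3 of 6 were called higher. Large peritoneal macrophage markers summed to 835 to 999.5 CPM and 1324 to 2152 CPM, with 1 of 6 called higher. Kupffer cell markers summed to 446 to 1649 CPM and 912 to 2814 CPM, with 1 of 5 tested called higher. No plasmacytoid dendritic cell marker (18.7 to 43.2 and 8.35 to 18.2 CPM) or B cell marker (74.3 to 191 and 48.0 to 137 CPM) was called. Conventional dendritic cell markers summed to 6.96 to 7.76 CPM with shNC and 26.3 to 32.4 CPM with shGm26917, with 1 of 4 tested called higher and 1 lower. Sinusoidal endothelial cell markers summed to 5.33 to 21.3 CPM with shNC and 2.32 to 6.16 CPM with shGm26917, with 1 of 2 tested called lower. Neutrophil markers summed to 219 to 604 CPM and 275 to 419 CPM, with 0 of 2 tested called. Hepatocyte markers summed to at most 0.469 CPM in any macrophage library, and the Kupffer cell marker Clec4f was at 0 in all 6. In liver, the 6 hepatocyte markers summed to 67831 CPM or more in every library, and the neutrophil markers rose in 5 of 5 tested, from a sum of 2.46 to 7.86 CPM in untreated liver to 211 to 292 CPM after LPS, with Ly6g at 0 in untreated liver. Plasmacytoid dendritic cell markers went from 2.78 to 9.47 CPM in untreated liver to 15.3 to 30.8 CPM after LPS, with 1 of 2 tested called higher, and T and NK cell markers from 1.48 to 3.89 CPM to 4.27 to 7.21 CPM, with 2 of 6 called higher. Other liver lists fell or were mixed. Conventional dendritic cell markers went from 8.48 to 10.8 CPM to 4.27 to 7.52 CPM, with 1 of 3 tested called lower. B cell markers went from 6.33 to 8.85 CPM to 3.29 to 6.39 CPM, with 1 of 5 tested called lower. Of the 6 sinusoidal endothelial cell markers in liver, 3 were called higher and 2 lower. Kupffer cell markers summed to 235 to 297 CPM in untreated liver and 132 to 345 CPM after LPS, with 1 of 6 called higher. Macrophage markers summed to 111 to 140 CPM and 65.8 to 132 CPM, with 1 of 6 called higher. The part of these shifts in the differences of the 35 genes was not tested.

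The 2 comparisons share no library, so their values can be set side by side. Across the 35 genes, the liver and macrophage log2 fold changes ran in opposite directions with a Pearson correlation of -0.81 and a Spearman correlation of -0.85 (n = 35 genes, which are not independent of each other). Without shNC replicate 2 the values were -0.81 and -0.83. The 10 genes that rose at least 64-fold in liver (the 4 IFIT genes, Isg15, Mx1, Mx2, Oasl1, Rsad2 and Cmpk2) also fell at least 64-fold in macrophages, where Ifi44 was the other gene past this size. Without shNC replicate 2, Oasl1 and Rsad2 were the 2 genes past it. Ifit2, Ifit3b, Mx2 and Ifi44 entered the macrophage test only through their shNC libraries. A fall in these 4 was therefore a condition of their place here and in the correlation. Bst2, Trim25 and Dtx3l had small differences in both comparisons. Parp14 and Ifi205 departed from this, with liver log2 fold changes of 5.63 and 5.98 and macrophage values of -2.003 and -1.55 without shNC replicate 2. Mx1, the largest rise in liver, was 16.7-fold lower in macrophages without that library, and 9 genes that rose less in liver had a larger fall there.

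**Figure D4:**
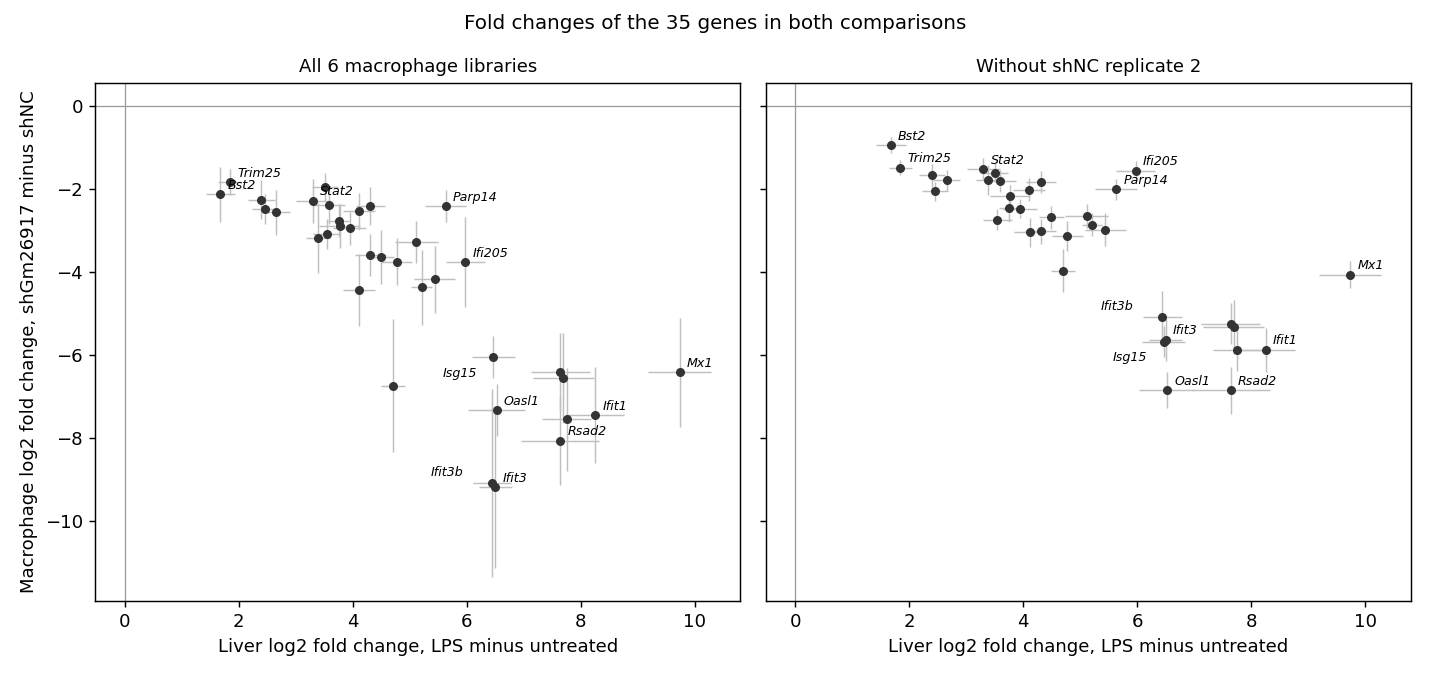
Log2 fold change of each of the 35 genes in liver (horizontal, LPS minus untreated) against that in macrophages (vertical, shGm26917 minus shNC), with bars of 1 SE, for all 6 macrophage libraries on the left and without shNC replicate 2 on the right. All points lie at positive liver and negative macrophage values, and without that library the macrophage values lie nearer 0 with shorter bars.

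The pathway that acts before and on the 35 genes was described with a list of 43 genes, from ligands to negative regulators. In liver, 34 of them passed the filter, 25 rose and 2 fell, beside 23.3% and 22.1% of all genes tested, with a median log2 fold change of 1.73. Of those 34, 4 (Ifng, Ifnlr1, Mb21d1 and Socs1) passed the filter only through their LPS libraries, so that a rise was a condition of being tested. In macrophages 34 were tested, 8 fell and 2 rose, beside 11.1% and 12.6% of all genes, with a median of -0.22. With shNC replicate 2 left out, 9 fell and 8 rose of 34 tested, beside 19.1% and 20.5% of all genes. Without shNC replicate 3, 5 fell, and without any 1 shGm26917 library 4 fell, with 1 rising in these fits and without shNC replicate 1. Over all genes, 801 of 13289 were called lower without shNC replicate 3. Without shGm26917 replicates 1, 2 and 3 these were 611 of 13268, 360 of 13218 and 406 of 13244. Higher calls were 878, 730, 479 and 572 in these 4 fits, and 1045 of 13299 without shNC replicate 1. In liver, 1 pathway gene and not 2 fell without any 1 library other than untreated replicate 2. Lower calls over all genes in these liver fits ran from 2187 of 14405 to 2990 of 14231.

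Interferon-beta (Ifnb1), a type I interferon induced by LPS, was at the edge of detection. Its counts were 0, 0 and 0 in untreated liver and 9, 0 and 1 after LPS, at least 4.46-fold higher against a floor of 3 counts over the group. In macrophages its counts were 0, 10 and 1 with shNC and 0, 0 and 0 with shGm26917, at least 4.57-fold lower on the same floor. Nearly all of these reads came from 1 library of each tissue, LPS replicate 1 in liver and shNC replicate 2 in macrophages, and Ifnb1 did not pass the filter in either tissue. Interferon-gamma (Ifng), made by NK and T cells, had 1 count in the untreated livers and 71 after LPS, a ratio of 94.97 with a 95% counting interval of 16.5 to 3803 that covers counting error only. In edgeR's test, which it entered only through its LPS libraries, its adjusted p was 0.00146 and its log2 fold change 6.08, which was 7.78 without untreated replicate 1 and 5.32 without LPS replicate 1. Ifng had 1 count in each macrophage group.

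Neither type I interferon receptor gene passed edgeR's test in either tissue. Ifnar1 was at 33.3, 32.7 and 31.3 CPM in untreated liver and at 32.2, 39.8 and 38.3 CPM after LPS (adjusted p = 0.388), and its groups overlapped. In macrophages Ifnar1 was at 257, 465 and 249 CPM with shNC and at 301, 244 and 232 CPM with shGm26917 (adjusted p = 0.420). Ifnar2 did not pass the test in liver (log2 fold change 0.47, adjusted p = 0.0672) or in macrophages (-0.61, adjusted p = 0.0890), where DESeq2 called it lower (-0.63, adjusted p = 0.0438). Without shNC replicate 2 the macrophage log2 fold changes were 0.018 in Ifnar1 (adjusted p = 0.933) and -0.37 in Ifnar2 (adjusted p = 0.0626).

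Irf9, Irf7 and Irf1, transcription factors of the pathway, rose in liver. Irf9 went from 37.7, 35.1 and 25.1 CPM to 386, 244 and 194 CPM (log2 fold change 3.07 ± 0.31, SE; adjusted p = 0.000121). Irf7, which amplifies interferon production and is itself induced by interferon, rose 18.8-fold, and Irf1 14.2-fold. In macrophages, Irf7 was at 205, 3145 and 461 CPM with shNC and at 48.3, 31.2 and 29.4 CPM with shGm26917, a log2 fold change of -5.13 ± 1.09 (SE; adjusted p = 0.0195) and of -3.22 without shNC replicate 2. Its controls had the same order of libraries as the 35 genes. Irf7 lost its call without each shGm26917 library (adjusted p from 0.0688 to 0.0891). Irf9 fell 2.53-fold (adjusted p = 0.00567), and 2.39-fold without shNC replicate 2.

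Irf1 did not follow the 35 genes in macrophages. It was at 51.1, 178 and 61.0 CPM with shNC and at 92.5, 93.1 and 94.5 CPM with shGm26917, so that the shGm26917 libraries lay between shNC replicate 2 and the other controls. Its log2 fold change was -0.05 ± 0.46 (SE; adjusted p = 0.947), and without shNC replicate 2 it was called higher, at 0.72 ± 0.12 (SE; adjusted p = 0.00258).

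Among the other pathway genes, the 3 largest rises in liver were those of Socs1, Socs3 and Ifng. Socs1 and Socs3, feedback inhibitors of cytokine signalling, rose 393-fold and 69.7-fold. Socs1, like Ifng, entered the test only through its LPS libraries, so a rise was a condition of being tested. Mavs, the mitochondrial adaptor of the RNA sensors, and Trim24 fell, 2.17-fold and 1.52-fold, and Pias1, the next gene in that direction, had a log2 fold change of -0.33 (adjusted p = 0.148). In macrophages the 3 largest falls were those of Irf7, Socs1 and Jak2. Jak2, a kinase of the interferon-gamma receptor and other cytokine receptors, was at 567, 601 and 576 CPM with shNC and at 134, 118 and 123 CPM with shGm26917, a log2 fold change of -2.22 ± 0.13 (SE; adjusted p = 0.00150). The 3 Jak2 controls differed by 1.06-fold at most, unlike those of the 35 genes. Socs1 fell 5.43-fold (adjusted p = 0.00884). Ticam2, the adaptor that links toll-like receptor 4 to TRIF, rose from 5.83, 6.42 and 4.25 CPM to 16.9, 29.5 and 24.9 CPM (log2 fold change 2.11 ± 0.26, SE; adjusted p = 0.00492), and Ifngr1 rose 1.55-fold (adjusted p = 0.0333). Without shNC replicate 2 these 4 were called as well, with log2 fold changes of -2.21 in Jak2, -2.17 in Socs1, 2.22 in Ticam2 and 0.77 in Ifngr1. Tmem173, which encodes STING, had a log2 fold change of 0.78 (adjusted p = 0.204), and of 1.42 without shNC replicate 2 (adjusted p = 0.000619).

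A further list of 48 interferon-induced genes outside the 35 was tested whole in both tissues. In liver 45 rose, beside 23.3% of all genes tested. All 48 had a log2 fold change above 0, with a median of 3.62. Ch25h and Ms4a4c passed the filter only through their LPS libraries. The largest 3 were Ch25h, which makes an antiviral oxysterol, Cxcl10, a chemokine for T cells, and Oas1b. Ch25h had no count in untreated liver and 1068 after LPS, at least 476-fold higher on the floor of 3 counts over the group. Oas1b, which like Mx2 is annotated as a polymorphic pseudogene, rose 52.6-fold. Cxcl10 rose from 2.46, 3.34 and 1.52 CPM to 3900, 3887 and 4372 CPM.

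In macrophages, 35 of the 48 fell, beside 11.1% of all genes tested. Of the 48, 47 had a log2 fold change below 0, and the median was -2.28. Without shNC replicate 2, 41 fell, beside 19.1% of all genes tested, and the median was -1.503. The count was 45 without shNC replicate 1 and 23 without shNC replicate 3, beside 1084 of 13299 and 801 of 13289 genes. Without shGm26917 replicate 1, 2 or 3 it was 13, 7 or 9, beside 611 of 13268, 360 of 13218 or 406 of 13244 genes. The largest falls were those of Cxcl10, Ms4a4c and Ch25h. Cxcl10, Ms4a4c and Ifi213 passed the filter only through their shNC libraries, so that a fall was a condition of being tested. Cxcl10 was at 70.1, 2155 and 247 CPM with shNC and at 0.407, 0.383 and 1.64 CPM with shGm26917, a log2 fold change of -9.99 ± 1.71 (SE; adjusted p = 0.0106), or -7.64 without shNC replicate 2. Without shGm26917 replicate 3 it was -10.99, and without shGm26917 replicate 2 it was not called (adjusted p = 0.0575). Ch25h was at 316, 681 and 334 CPM against 4.73, 1.81 and 5.78 CPM, a log2 fold change of -6.75 ± 0.58 (SE; adjusted p = 0.00235), or -6.32 without shNC replicate 2. Ms4a4c fell 113-fold, or 32.2-fold without shNC replicate 2. Ifi27 was the gene above 0, at 182, 34.6 and 162 CPM with shNC and 150, 119 and 140 CPM with shGm26917 (adjusted p = 0.892), and its lowest library was shNC replicate 2, the reverse of the 35 genes.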

How the data were processed

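The deposited tables hold raw read counts per Ensembl gene ID, 1 table per library, which the authors made with STAR and featureCounts 1.6.3 on mm10, per the submitters' processing notes. No source used here gives the annotation release, the strand setting or the treatment of reads with several matches. The macrophage column headers carry the word combined, and what was combined is not given. No 2 libraries of a tissue held identical values.

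A gene name table gave symbols to 49326 of the liver IDs and 55141 of the macrophage IDs. The other IDs held at most 0.0184% of a library. Coordinates and exon lengths are those of GENCODE M21, and promoters those of RefSeq (GRCm38.p6).

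Each tissue was fitted alone on the counts with edgeR 4.0.16 under R 4.3.3: filterByExpr, TMM, glmQLFit and glmQLFTest, 2-sided, with Benjamini-Hochberg adjustment over the 13869 liver or 12876 macrophage genes tested. The SE was taken from the log2 fold change and its F statistic. The steps were tested on simulated data with 200 changed genes. Alternatives were DESeq2 1.42.0, DESeq2 size factors, library totals alone, other low-count filters, a replicate block, 1 fit of all 12 libraries and leaving out each library.

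The 35 genes, the other lists and the markers were chosen with earlier results of these data known. Values per library are given for the members with the largest and smallest change in each role and tissue, and for up to 12 members called in macrophages, by p. Of the pathway genes, 10 were to be named whatever they showed, with the 3 largest in each direction, and 1 of the 10 is not reported here. Genes singled out beyond this rule were chosen after their values were seen. Counting intervals cover counting error only.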

Additional observations from a re-analysis of the deposited data

How the results depend on the processing

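All 35 genes were called higher in liver in every alternative run, and all 35 were lower in macrophages in every alternative, where the number called varied. Higher calls over all genes in liver ran from 1943 of 13869 with library totals alone to 3500 of 24918 without a low-count filter. Leaving out 1 macrophage library gave 13 to 35 calls. DESeq2 called 33 in macrophages and gave no adjusted p for Ifit3 and Ifit3b, and without a low-count filter or with all 12 libraries in 1 fit the count was 35. Lower calls over all genes were 1947 of 15037 with DESeq2 and 1284 of 23170 without a filter. With all 12 libraries in 1 fit they were 1368 of 15161. Of all genes tested in macrophages, 3049 were called, and 839 to 5236 when 1 library was left out. Leaving out 1 library gave 1 to 2 lower pathway genes in liver, and in macrophages 1 to 8 higher and 4 to 9 lower pathway genes and 7 to 45 lower genes of the other induced list.

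Scaling by library totals alone moved the median of all genes from -0.06 to -0.49 in liver and from -0.00073 to 0.29 in macrophages, with medians of the 35 genes at 4.06 and -3.28. The share of higher calls among all calls went from 51.3% to 26.8% in liver and from 53.1% to 79.8% in macrophages. With library totals, 4 pathway genes were lower in liver and 7 higher in macrophages, beside 5305 of 13869 and 3135 of 12876 of all genes tested. Ifnar1 turned to -0.25 in liver under library totals and, in macrophages, from -0.32 to 0.018 without shNC replicate 2 (-0.49 to 0.018 over the libraries left out). Irf1 in macrophages turned to 0.25 under library totals, to 0.19 with the replicate block and to 0.72 without shNC replicate 2 (-0.37 to 0.72 over the libraries left out). The cause was not tested.

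Replicate numbers are shared between groups, but same-numbered libraries did not deviate together throughout: correlations were 0.13, 0.07 and -0.08 in liver and -0.06, 0.27 and 0.23 in macrophages, and not every library correlated best with its own number. With the replicate number as a block, 35 liver and 32 macrophage members were called. Over all genes, 3002 of 13869 were then called higher in liver and 1170 of 12876 lower in macrophages. Ifi204 (adjusted p = 0.0739) and Ifi205 (adjusted p = 0.0917) were not called in that fit.

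With 3 libraries a group the precision is limited. Ifnb1 had too few reads for a test, and the strand, multi-mapping and pooling of the deposited counts are not known here.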
